A study of Mus musculus with 2 samples.

Results

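The killer cell lectin-like receptor (Klr) genes were examined in RNA sequenced from aortic macrophages of dyslipidemic mice. All genes of the deposited table whose symbol begins with Klr and a lower-case letter were taken, which gave 30 genes of 54532. Of these, 26 are annotated as protein-coding and 4 as pseudogenes. Both groups were male ApoE-/- mice on the C57BL/6J background, 6 weeks old by their labels. The PDR (Phlegm-Dampness Retention) group had 4 weeks of high-fat diet. The SKYD (Spleen and Kidney Yang Deficiency) group was first gavaged with propylthiouracil, an antithyroid drug, for 4 weeks at 10 mg/kg daily, and high-fat diet followed for 2 weeks. Cells were sorted on F4/80 and CD11b, and the cells of 5 mice were pooled into 1 library in each group. No difference below therefore has a replicate check, no test between groups was possible, and syndrome, drug, diet time and age at sampling cannot be told apart.

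Klr receptors are C-type lectin-like proteins of the cell surface, best known from natural killer (NK) cells and some T cells. Inhibitory members carry tyrosine motifs in the cytoplasmic tail that recruit phosphatases, whereas activating members signal through adaptor proteins such as DAP12 (Tyrobp) and DAP10 (Hcst). Many of them read MHC class I molecules on other cells, so that loss of class I or gain of stress ligands changes the balance of signals. In tissue the family is used mostly to follow NK cells, but a few members are known from myeloid cells, among them Ly49B (Klra2) and Ly49Q (Klra17). Of the sort markers, CD11b is also present on NK cells, whereas F4/80 is a macrophage marker that NK and T cells mostly lack, so that a sort on both would be meant to remove them.

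Reads on genes summed to 23086889 for PDR and 25427863 for SKYD. The macrophage label was checked first. All 7 macrophage markers had reads in both libraries, among them Adgre1, the F4/80 gene, with 6639 reads in PDR and 7551 in SKYD. The 9 NK cell markers had 11074 reads in PDR and 4617 in SKYD, and the 8 T cell markers had 11753 and 74707, with 0 markers at zero reads in either list. Transcripts of NK and T cells were thus measured in both pools. In such bulk RNA, fewer cells of a type and less RNA per cell cannot be told apart, and the part of these cells in any Klr difference was not tested.

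As a family, Klr genes took a larger share of reads in the PDR library. They had 10764 reads in PDR, or 0.0466% of the library (95% exact binomial interval 0.0457 to 0.0475), and 7692 in SKYD, or 0.0303% (0.0296 to 0.0309). The ratio of these shares was 1.54. Folds from here on use instead the library size behind the deposited FPKM (23487992 reads in PDR and 24993633 in SKYD), on which the family was 1.49-fold higher in PDR (1.45 to 1.53). Intervals here and below come from exact (Clopper-Pearson) limits and carry counting error alone, without any spread between animals. Klra2 alone held 40.5% of the Klr reads in PDR and 43.4% in SKYD, and without it the family was 1.57-fold higher in PDR (1.51 to 1.63), with a ratio of shares of 1.62. The remaining difference lay in Klrk1 (2059 reads in PDR and 726 in SKYD), Klrc1 (600 and 135) and Klrg1 (573 and 25). Outside these genes and Klra2, inhibitory members had 1234 reads in PDR and 1364 in SKYD, and activating members 1005 and 697. Klrd1 and Klre1 together had 836 and 1274, pseudogenes 65 and 44, and Klrg2 35 and 87. The rest of the family was thus not higher in PDR by sum, with these genes singled out after their values were seen.

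**Figure D1:**
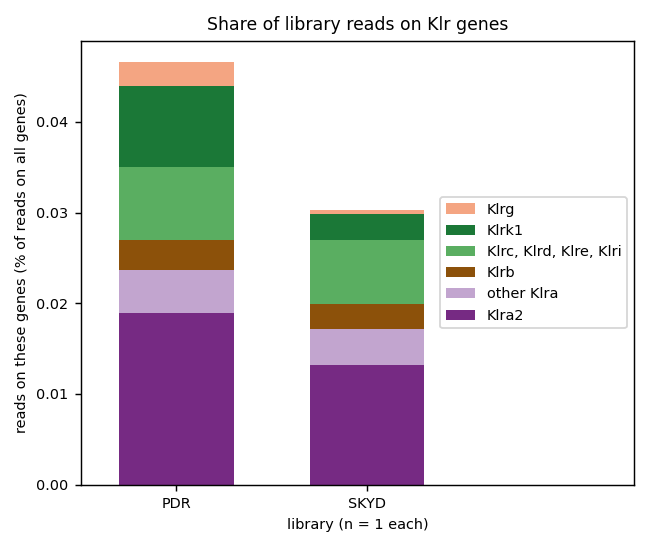
Share of all reads on genes that fell on Klr genes, in percent, stacked by subfamily for both pools (n = 1 library each). Klra2 is the largest block in both bars, and the Klrk1 block, with 2059 reads in PDR and 726 in SKYD, narrows most.

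The members went in different directions. Of the 30 genes, 27 had reads in both libraries, Klra10 had 4 reads in SKYD and 0 in PDR, and the pseudogenes Klra11-ps and Klrb1-ps1 had 0 in both, where a count of 0 allows up to 3 reads. On the scale of log2(FPKM + 1), PDR minus SKYD, 19 members had a mean FPKM of at least 1. Of these, 5 were more than 2-fold higher in PDR, against a background of 7.38% of the 10399 tested genes, and 1 was more than 2-fold higher in SKYD, against 6.91%. The 5 were Klrg1, Klrc1, Klrk1, Klra8 and Klra4, and the 1 was Klra1. The median difference was 0.44 over the 19 members and -0.0035 over all tested genes. Klrg1, Klra8 and Klra14-ps passed the filter only through PDR, and Klra1 only through SKYD, so that these 4 had to differ to be counted. By the ratio of reads, which does not compress low genes, 25 members had at least 20 reads over both libraries. Among them 9 were more than 2-fold higher in PDR, with a background of 13.3% of genes, 3 were more than 2-fold higher in SKYD, with a background of 15.4%, and 13 lay within 2-fold. With the filter at a mean FPKM of 5, 3 members were past 2-fold toward PDR and 0 toward SKYD, against 8.06% and 6.48% of genes. At a 4-fold threshold the counts were 1 and 0, against 1.87% and 2.08%.

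**Figure D2:**
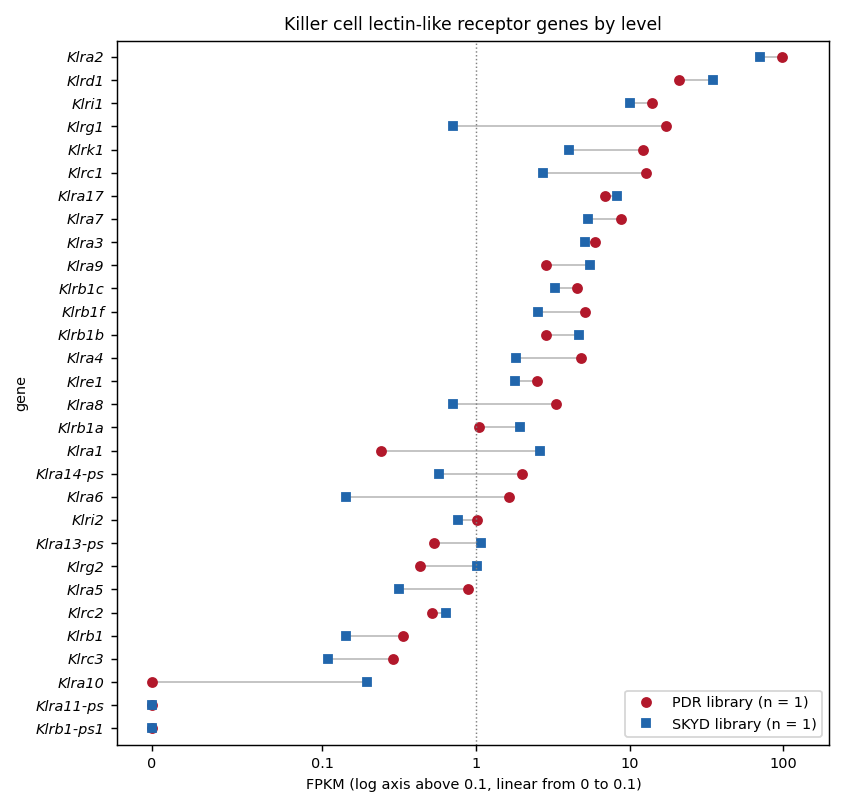
FPKM of each Klr gene in PDR (circles) and SKYD (squares), ordered by mean level, on a log axis that is linear below 0.1. Levels run from 0 to 97.7, and the dotted line marks an FPKM of 1. Among genes with reads in both libraries, Klrg1, Klra1 and Klra6 show the widest gaps.

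The Ly49 receptors, encoded by the Klra genes, bind MHC class I. The most abundant was Klra2 (ENSMUSG00000030187, chr6:131219223-131247362 of GRCm38, minus strand), which encodes Ly49B, an inhibitory receptor of myeloid cells. Its level was 97.7 FPKM from 4357 reads in PDR and 70.4 FPKM from 3340 reads in SKYD, a log2 difference of 0.47 (0.40 to 0.53). It ranked first of the family in both libraries and lay 1.39-fold higher in PDR, within 2-fold. Klra17, the gene of Ly49Q, had 194 reads in PDR and 247 in SKYD, and its log2 difference of -0.23 had an interval that included 0 (-0.47 to 0.02). So the pair of Ly49 genes best known from myeloid cells differed less than 1.5-fold between the libraries.

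The other Ly49 genes lie side by side after Klra17, which opens the stretch from Klra17 to Klra1 at chr6:129831154-130386874, and several of them differed more. Klra1, the gene of the inhibitory receptor Ly49A, was the member most in favour of SKYD, with 10 reads in PDR and 115 in SKYD. Its FPKM was 0.24 and 2.61, a log2 difference of -1.54 (-1.74 to -1.26), or 10.8-fold higher in SKYD by reads (5.67 to 23.1). Klra6, the gene of inhibitory Ly49F, went the other way, with 43 reads in PDR and 4 in SKYD, 11.4-fold higher in PDR (4.16 to 43.9). Its mean FPKM of 0.89 left it below the filter. The FPKM of Klra6 was 6.80 times that of Klra1 in PDR and 0.055 times in SKYD, so the order of these genes was opposite in the libraries.

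Both activating Ly49 genes were higher in PDR. Klra8 encodes Ly49H, which recognises a cytomegalovirus protein, and had 92 reads in PDR and 21 in SKYD, a log2 difference of 1.34 (0.97 to 1.66), or 4.66-fold by reads (2.88 to 7.89). Klra4, the gene of Ly49D, had 142 and 57 reads, a log2 difference of 1.05 (0.72 to 1.36), or 2.65-fold by reads (1.94 to 3.67). The pseudogene Klra14-ps, which lies next to Klra8, had 52 and 16 reads, a log2 difference of 0.92 (0.52 to 1.27), or 3.46-fold by reads (1.94 to 6.49). Klra8 and Klra14-ps are not fully separable by reads. Of the 100-base windows of Klra8 transcripts, 14.4% occur in transcripts of another gene, and the gene that shares most of them is Klra14-ps.

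Among the other inhibitory Ly49 genes, none with at least 20 reads differed as much as Klra1 or Klra6. Klra7 (Ly49G) had 262 reads in PDR and 170 in SKYD, a log2 difference of 0.62 (0.38 to 0.87). Klra3 (Ly49C) had 174 and 159, with an interval that included 0 (0.19, -0.08 to 0.46). Klra9 (Ly49I), a close relative of Klra3, was lower in PDR, with 86 and 177 reads and a log2 difference of -0.76 (-1.06 to -0.46). Klra3 and Klra9 bind similar class I molecules, and of the 31-base windows of Klra3 transcripts, 31.8% also occur in Klra9. By the longer 100-base windows used for Klra8, 1.78% of those of Klra3 and 4.07% of those of Klra9 occur in any other gene. Klra5 (Ly49E) had 29 and 11 reads, 2.81-fold higher in PDR (1.36 to 6.22), and the pseudogene Klra13-ps had 13 and 28, 2.02-fold higher in SKYD (1.01 to 4.26). Summed without Klra2, the Klra genes had 1097 reads in PDR and 1009 in SKYD, a ratio of 1.16 (1.06 to 1.26). Members such as Klra1, Klra6 and Klra8 differed far more than this sum, whereas Klra3 and Klra17 did not.

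The promoters of these genes are shown because members that differed in opposite directions share the same element. RefSeq promoters of GRCm38.p6, covering 250 bases before to 50 after each annotated start, were found for 23 of the 30 members. An 11-base run with 1 free base, GCANTTTCCTC, was picked from these promoters and searched on both strands. It and another run, TTTCCTCNTTT, which overlaps it, were each held by 9 Klra genes, more than any other such run, and the one found in fewer promoters overall is shown. It was present in 9 of the 11 Klra genes with an entry (10 of their 13 promoters, since 1 of those of Klra7 lacks it), in none of the other Klr genes, and in 0.134% of all 32851 promoters, and both shares were shaped by how it was picked. It begins 23 to 147 bases before the annotated starts. The 23 is for Klra3, whose bases after the RefSeq start lie outside its GENCODE transcripts, and the next is 42 for Klra9. The 60 bases around it are given 5′ to 3′ on the strand of the gene, with the run in capitals.
Klra2 (chr6:131247390-131247449, minus strand): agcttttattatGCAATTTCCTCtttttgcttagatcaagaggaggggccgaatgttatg
Klra17 (chr6:129876703-129876762, minus strand): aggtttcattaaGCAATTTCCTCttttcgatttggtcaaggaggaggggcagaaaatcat
Klra6 (chr6:130027030-130027089, minus strand): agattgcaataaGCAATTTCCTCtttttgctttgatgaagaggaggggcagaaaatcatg
Klra5 (chr6:129913271-129913330, minus strand): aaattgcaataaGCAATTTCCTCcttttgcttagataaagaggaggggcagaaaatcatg
Klra8 (chr6:130129935-130129994, minus strand): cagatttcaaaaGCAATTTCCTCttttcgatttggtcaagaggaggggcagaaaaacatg
Klra4 (chr6:130067307-130067366, minus strand): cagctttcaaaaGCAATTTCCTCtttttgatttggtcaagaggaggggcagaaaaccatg
Klra7 (chr6:130233368-130233427, minus strand): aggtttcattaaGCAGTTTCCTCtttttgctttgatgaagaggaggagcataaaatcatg
Klra3 (chr6:130337602-130337661, minus strand): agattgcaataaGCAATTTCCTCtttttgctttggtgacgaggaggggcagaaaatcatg
Klra9 (chr6:130193107-130193166, minus strand): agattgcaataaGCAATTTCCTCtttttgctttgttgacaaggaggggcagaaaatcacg
Klra6, which was higher in PDR, and Klra9, which was higher in SKYD, carry the block with 56 of 60 bases identical. The run is not in the 300-base window of Klra10, which had 4 reads in all, or in that of Klra1, which is given in full.
Klra1 (chr6:130386825-130387124, minus strand): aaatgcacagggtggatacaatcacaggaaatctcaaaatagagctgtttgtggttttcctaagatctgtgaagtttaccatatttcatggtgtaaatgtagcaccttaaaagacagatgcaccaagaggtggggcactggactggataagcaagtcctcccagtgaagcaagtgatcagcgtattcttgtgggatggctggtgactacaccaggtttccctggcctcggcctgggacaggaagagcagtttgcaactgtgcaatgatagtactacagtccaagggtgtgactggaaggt
A match or its absence is a description of the window only.

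Klrc, Klrd, Klre, Klri and Klrk genes lie together at chr6:129577905-129740484. CD94, encoded by Klrd1, pairs with NKG2 proteins to read the class I molecule Qa-1 (H2-T23). Klrd1 (ENSMUSG00000030165) was second of the family by mean level and was lower in PDR, with 20.97 FPKM from 631 reads in PDR and 34.9 FPKM from 1117 reads in SKYD, a log2 difference of -0.71 (-0.85 to -0.57). Its inhibitory partner NKG2A, encoded by Klrc1 (ENSMUSG00000030167), was higher in PDR, with 12.9 FPKM from 600 reads and 2.72 FPKM from 135 reads, a log2 difference of 1.90 (1.69 to 2.11). The genes of the 2 partners therefore differed in opposite directions. The FPKM of Klrd1 was 1.63 times that of Klrc1 in PDR and 12.8 times in SKYD.

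The activating partners of CD94 were scarce. Klrc2 (NKG2C) had 71 reads in PDR and 93 in SKYD, with an interval that included 0 (-0.11, -0.27 to 0.06), and Klrc3 (NKG2E) had 5 and 2. Of the 100-base windows of Klrc1 transcripts, 14.6% occur in another gene, mostly Klrc2, so that part of each gene could not be assigned to 1 of them.

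Klrk1 encodes NKG2D, an activating receptor that does not pair with CD94 and that binds stress-induced ligands. After Klra2 it had the most reads of the family in PDR, whereas in SKYD Klrd1 had more. Klrk1 (ENSMUSG00000030149, chr6:129610323-129623864) had 12.2 FPKM from 2059 reads in PDR and 4.04 FPKM from 726 reads in SKYD, a log2 difference of 1.39 (1.29 to 1.49), or 3.02-fold by reads (2.77 to 3.29). It took more reads than all other activating members together in both libraries. Its length of 7183 bases, the longest of the family, raises its reads, and by FPKM it ranked 6 of the family in PDR and 9 in SKYD.

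The Klre1 and Klri genes encode receptors that pair with each other, KLRE1 with either inhibitory KLRI1 or activating KLRI2. All of them had somewhat higher values in PDR. Klri1 had 275 reads in PDR and 211 in SKYD, a log2 difference of 0.44 (0.19 to 0.68), and Klre1 had 205 and 157, a log2 difference of 0.32 (0.11 to 0.53). For Klri2, with 93 and 75 reads, the interval included 0 (0.19, -0.03 to 0.40). The FPKM of Klri1 was 5.59 times that of Klre1 in PDR and 5.604 times in SKYD, so that the ratio of these partners was nearly equal in the libraries.

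The Klrb genes encode the NKR-P1 receptors, which bind Clr proteins made by the neighbouring Clec2 genes. Klrb1c, whose product carries the NK cell antigen NK1.1 in C57BL/6 mice, had 319 reads in PDR and 243 in SKYD, a log2 difference of 0.38 (0.19 to 0.58). Activating Klrb1f had 244 and 129, a log2 difference of 0.79 (0.55 to 1.03), which by reads was 2.01-fold (1.62 to 2.51). Inhibitory Klrb1b had 150 and 261, a log2 difference of -0.56 (-0.79 to -0.33), and Klrb1a had 39 and 77, a log2 difference of -0.52 (-0.84 to -0.19). Inhibitory Klrb1 had 11 and 5. On the log2(FPKM + 1) scale, 4 Klrb genes passed the filter, of which 2 were higher in each library and 0 differed more than 2-fold. Of the 100-base windows of Klrb1b and Klrb1c, 22.3% and 10.8% occur in other genes, mostly in Gm44511, an overlapping gene model on the same strand with 0 reads in both libraries.

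Klrg1 showed the widest difference of the family in favour of PDR. It encodes an inhibitory receptor for cadherins that marks mature NK cells and effector T cells. Klrg1 (ENSMUSG00000030114, chr6:122270596-122282882) had 17.3 FPKM from 573 reads in PDR and 0.71 FPKM from 25 reads in SKYD, a log2 difference of 3.42 (3.14 to 3.66), or 24.4-fold by reads (16.4 to 38.0). No window of 100 bases of its transcript was found in another gene. The distant and little studied Klrg2 (chr6:38625693-38637242) had 35 and 87 reads, 2.34-fold higher in SKYD (1.56 to 3.56).

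**Figure D3:**
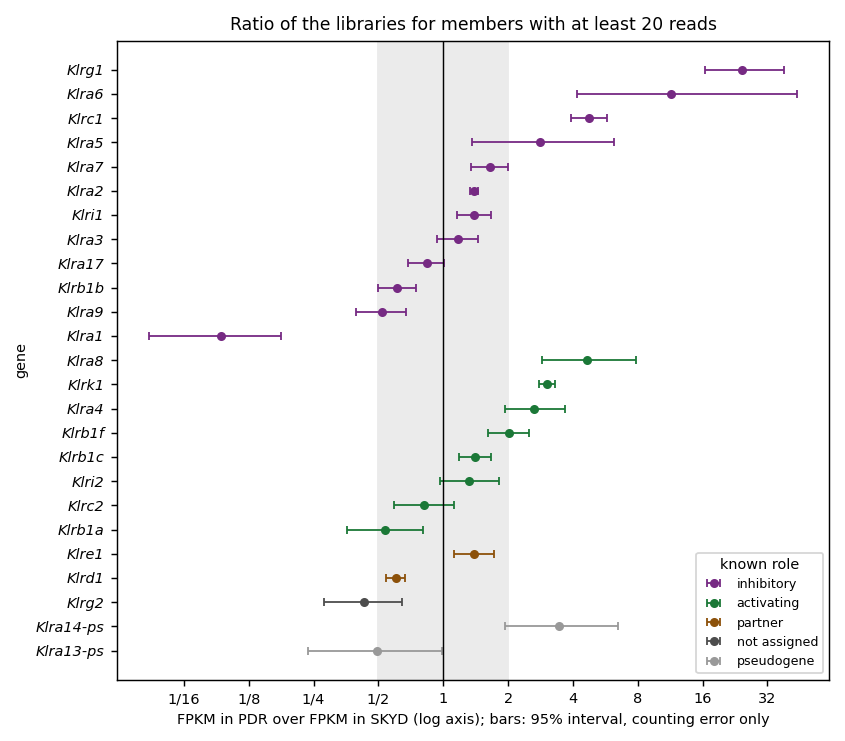
Ratio of FPKM in PDR over SKYD for the 25 Klr genes with at least 20 reads, on a log axis, grouped by known role, with 95% intervals for counting error only (n = 1 library each). The grey band is 2-fold, and Klrg1 at 24.4 lies highest while Klra1 lies lowest.

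Grouped by role, inhibitory and activating members were both higher in PDR by sum. The 9 activating members had 3064 reads in PDR and 1423 in SKYD, 2.29-fold higher in PDR (2.15 to 2.44), and without Klrk1 the ratio was 1.53 (1.39 to 1.69). The 14 inhibitory members had 6764 and 4864, 1.48-fold higher in PDR (1.43 to 1.54). Without Klra2, Klrg1 and Klrc1 the inhibitory members had 1234 and 1364, a ratio of 0.96 with an interval that included 1 (0.89 to 1.04). These genes were left out after their values were seen. By the ratio of reads, 6 of 8 activating members with at least 20 reads were higher in PDR and 8 of 12 inhibitory members were, against 48.4% of all genes with as many reads.

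Adaptors such as DAP12 and DAP10, through which activating members signal, did not share their direction. All 4 listed adaptor genes, Cd247 included, were lower in PDR, against 5240 of 10399 tested genes. Tyrobp (DAP12) had 45552 reads in PDR and 72239 in SKYD, a log2 difference of -0.58, Hcst (DAP10) had a log2 difference of -0.54 and Fcer1g of -0.45. These are also macrophage genes. Cd247, the T cell receptor zeta chain, had -1.89. Of 15 expressed genes of proximal signalling, 8 were higher in PDR and 7 lower, near the split over all tested genes (5158 of 10399 higher in PDR), with a median of 0.038 that was below 0 without the filter and by the ratio of reads. Ptpn6, the phosphatase SHP-1 that inhibitory motifs recruit, had 12199 and 7970 reads, a log2 difference of 0.70, and Plcg2 had 0.99 and Lat2 had 0.91, whereas Lat had -2.45 and Lck -1.69, both T cell signalling genes.

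Genes of the class I pathway, which supplies ligands of Ly49 and of CD94 with NKG2A, were all higher in PDR, against 5158 of 10399 tested genes. The 6 genes had a median log2 difference of 0.92, and H2-T23, the Qa-1 gene, had 19267 reads in PDR and 10943 in SKYD (0.90). H2-K1 had 0.94, H2-D1 had 0.30, B2m had 0.45, H2-Q7 had 1.87 and Tap1, a subunit of the peptide transporter of this pathway, had 1.89. Ligands of NKG2D were low, and 5 of 9 names were found in the table. Raet1d had 56 and 70 reads, Raet1e had 89 and 27, Ulbp1 had 98 and 60, and H60b and H60c had at most 2. Among ligands of NKR-P1 receptors and KLRG1, Clec2i had 565 and 698 reads, Clec2d had 100 and 80, Clec2f had 32 and 8 (1.05) and Clec2g had 23 and 132 (-1.09), each past the filter through 1 library only. Cdh1, the E-cadherin ligand of KLRG1, had 0 reads in PDR and 53 in SKYD, at least 16.6-fold higher in SKYD.

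Cell type markers differed in the direction of some members and against others. Of the 9 NK cell markers, 7 passed the filter and all 7 were higher in PDR, against 5158 of all 10399 tested genes. Their median log2 difference was 1.20. Tbx21 and Prf1 passed only through PDR and so had to differ, and over the 5 markers with an FPKM of at least 1 in both libraries the median was 1.19. The summed FPKM of all 9 was 432 in PDR and 174 in SKYD. Ncr1, the NK receptor NKp46, had 406 and 96 reads (1.81), Tbx21, the transcription factor T-bet, had 372 and 14 (2.59), Gzma had 1.15, Nkg7 had 1.48 and Cd160, the lowest, had 0.80. Eomes had 29 and 11 reads, and Itga2 had 15 and 16. Of 14 expressed cytotoxic effectors, PDR was higher for 12, against the same 5158 of 10399 genes. Their median was 1.17 (1.13 without the 2 that passed only through PDR), led by Gzmb at 3.43, whereas Srgn, also a myeloid gene, had -1.35. Gzma, Nkg7 and Prf1 are in both lists, so the lists are not separate observations. The Klr genes lay mostly below the NK marker median. Of the 19 members that passed the filter, 4 (Klrg1, Klrc1, Klrk1 and Klra8) lay above the NK marker median, of which Klrg1 and Klra8 had passed only through PDR, and 13 lay under Cd160, among them Klrb1c at 0.38 and Klrd1, Klra9, Klrb1b, Klrb1a, Klra17 and Klra1, all below 0. By the log2 ratio of reads, where the NK marker median was 1.49, Klra14-ps (1.79) and Klra6 (3.52) lay above it as well. T cell markers went the other way, with all 8 more than 2-fold higher in SKYD, against 6.91% of all tested genes. Their median was -2.38, from -1.54 for Trac to -3.72 for Cd8b1, with Cd3d at -2.36. Of the Klr genes above, Klrk1, Klrc1, Klrd1 and Klrg1 are known from T cells as well. Among 5 immature T cell markers 4 were more than 2-fold higher in SKYD, against the same 6.91%, led by Dntt at -6.86. Cd1d1 had 0.84, and Rag1, Rag2 and Ptcra had 0 reads in PDR. Dntt, Rag1, Rag2 and Ptcra passed the filter only through SKYD, where they were high. Markers of plasmacytoid dendritic cells, which also express Klra17, had a median of -2.17 (-0.69 over the 2 with an FPKM of at least 1 in both libraries), with Siglech at 39 and 964 reads, Ccr9 at 131 and 4774, Bst2 at -0.10 and Tcf4 at 0.32, and Klk1 had 0 reads in PDR and 1067 in SKYD. Macrophage markers had a median of -0.58, from -0.90 for Lyz2 to 0.54 for Fcgr1, with Cd68 at -0.58. The part of each cell type in the Klr differences was not tested.

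**Figure D4:**
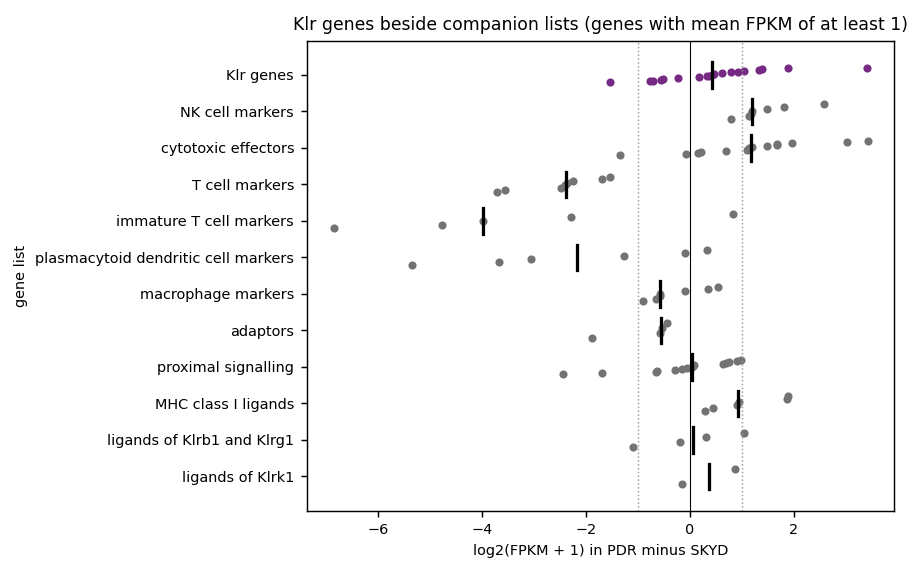
Differences of log2(FPKM + 1), PDR minus SKYD, for Klr genes and companion lists, with each point a gene that passed the filter and each bar a list median. The Klr genes spread from -1.54 to 3.42 around a median of 0.44, NK cell markers lie at 0.80 and above, and T cell markers lie at -1.54 and below.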

How the data were processed

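After read filtering, the authors used TopHat 2.0.9 on Bowtie2 2.0.6 for alignment and HTSeq 0.6.1 for counting, and deposited FPKM with gene lengths and positions. The submitters' processing notes name mm9, but all 30 Klr genes and 98.3% of 54409 shared genes have the positions of GENCODE M21 on GRCm38. The strand setting is not given in the sources used here. FPKM times length came in whole multiples of 1 step per library (tolerance 0.01) for 100% of genes above 0, which gave the reads. Differences are log2(FPKM + 1), PDR minus SKYD, for genes whose mean FPKM reached 1, and more than 2-fold was counted. Members with at least 20 reads over both libraries were named with values, and of each companion list the 3 highest by mean FPKM, the largest difference each way and the defining markers. Other genes were chosen after their values were seen. The Klr genes, roles and lists were chosen with earlier results of these data known. Receptor classes are background knowledge, because the planned grouping by protein motif was not run. Alternatives were other pseudocounts, filters, TPM, centring, protein-coding genes, a 4-fold threshold and the ratio of reads. Steps were tested on simulated data. Work was done in Python 3.11.15 with scipy 1.17.1, pandas 2.3.3 and numpy 2.4.6, and figures with matplotlib 3.10.9.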

Additional observations from a re-analysis of the deposited data

How the results depend on the processing

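No paired analysis was possible because each group had 1 library, and for the same reason no replicate could be left out. The direction of the 25 named Klr genes was the same under the 5 settings that change single values (pseudocounts of 0.1 and 0.01, TPM, centring, ratio of reads). This is no check of direction. A pseudocount or the ratio of reads cannot change the sign of a difference, TPM only rescales each library, and the median removed by centring was -0.0035. With the filter at a mean FPKM of 5, the counts of members past 2-fold were 3 toward PDR and 0 toward SKYD, since fewer genes were tested. Of all genes at this filter, 8.06% and 6.48% were past 2-fold. By the ratio of reads the counts were 9 and 3, against 13.3% and 15.4% of genes. At a 4-fold threshold they were 1 and 0, against 1.87% and 2.08%. Without a filter the median of the members was 0.22, which includes genes at or near 0. The share of reads was 0.0545% in PDR and 0.0354% in SKYD without the 10 genes with the most reads, and 0.0278% and 0.0171% without Klra2, a setting added after seeing the data. List medians near 0 changed sign. Proximal signalling had -0.017 without a filter and -0.070 by the ratio of reads. Ligands of NKR-P1 and KLRG1 had -0.033 without a filter, -0.19 with a mean FPKM of at least 5 and with protein-coding genes only, and -0.22 by the ratio of reads. Other genes of the NK gene complex had -0.00087 with a mean FPKM of at least 5 and -0.038 with protein-coding genes only. The cause of these sign changes was not tested. Depth limits Klra6, Klra1 and Klra5, with at most 11 reads in 1 library, and Klra13-ps, with 41 in all, and Klrb1, Klrc3 and Klra10 had under 20 reads in all.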

Other observations

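Other genes of the NK gene complex on chromosome 6 lie between the Klr genes and were compared in the same way. Of 10 whose mean FPKM reached 1, 6 were higher in PDR and 4 were lower, near the split over all tested genes (5158 of 10399 higher in PDR), with a median log2 difference of 0.065 that was below 0 with the filter at 5 and with protein-coding genes only. The myeloid receptor genes Clec7a, which encodes the beta-glucan receptor Dectin-1, and Clec12a were higher in PDR, with 8332 reads in PDR and 3755 in SKYD (1.23) and with 7868 and 2764 (1.55). Magohb had 0.10, Cd69, an early activation marker, had -0.10, and Clec2g was the lowest at -1.09. Clec2g passed the filter only through SKYD and Clec2f, at 1.05, only through PDR, so that both had to differ to be counted.

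Neutrophil and mast cell markers were also measured. All 4 neutrophil markers were higher in PDR, against 5158 of 10399 tested genes, with S100a8 at 0.37, S100a9 at 0.40, Ngp at 0.998 and Ly6g at 1.14. Of the mast cell and basophil markers, Mcpt8, a basophil protease, had 144 reads in PDR and 48 in SKYD (1.29), Cpa3 had 205 and 530 (-1.15), Fcer1a had 58 and 70, and Gata2 had 1 and 8.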
